A study of Danio rerio with 12 samples.

Results

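The genes described here are 48 named genes of mitosis, chosen by name from the cyclin-dependent kinase that starts division to the proteins that part the daughter cells. Of the 14581 genes in the expression table, 40 carried a member's name as their gene ID. Another 3 members had a row under another ID, and 5 (bub1, bub1ba, incenp, tpx2 and cenpf) had neither and were not analysed here. RNA had been measured in EGFP-positive neuroblastoma cells sorted from tumour-bearing zebrafish, in 8 libraries from MYC transgenic fish (MYC-1 to MYC-8) and 4 from MYCN transgenic fish (MYCN-1 to MYCN-4). All libraries came from tumours, so no normal tissue stands beside them. The labels gave neither the promoter of the transgenes nor the age of the fish, nor whether a library came from 1 fish, so p-values measure the spread between these libraries, which may be technical. The MYC libraries are described as 2 sets of 4, MYC-5 to MYC-8 and MYC-1 to MYC-4, following their numbers. The labels do not say whether these numbers mark a batch. All levels are FPKM, which scales fragments by transcript length and library depth, so levels of different genes can be set side by side.

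Mitosis begins when the kinase CDK1, bound to A-type and B-type cyclins, drives chromosome condensation and spindle assembly. The spindle checkpoint holds the cell until each kinetochore is attached, and the anaphase-promoting complex then marks cyclin B and securin for destruction so that the chromosomes part. Many of the genes involved are transcribed in the G2 and M phases of the cycle, largely under FOXM1 and the MYB-MuvB complex, and for this reason their RNA is widely read as a sign of how many cells in a tumour are dividing. In bulk RNA, fewer dividing cells and less of these transcripts per cell cannot be told apart.

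Of 12 sympathoadrenal markers in the table none was at 0 in all libraries, but 5 of the 11 tested fell in MYC (limma, adjusted p under 0.05). That is 45.5%, against 7.63% of all genes tested. The median log2 fold change was -0.84 over the 11 and -0.05 over all genes tested. The markers that fell included the factor genes ascl1a (2.27 ± 3.04 FPKM in MYC and 63.5 ± 31.8 FPKM in MYCN, SD, adjusted p = 0.000202), isl1 (5.60 and 44.8 FPKM, adjusted p = 0.00176) and phox2bb (9.27 and 46.2 FPKM, adjusted p = 0.0140). Others were high in both genotypes. The dopamine beta-hydroxylase gene dbh ranged over 917 to 2632 FPKM in MYC and 1753 to 3237 FPKM in MYCN libraries. The factor gene hand2 ranged over 751 to 1780.1 FPKM in MYC and 1560.4 to 3365 FPKM in MYCN libraries. Other cells were present too. The 18 macrophage markers in the table, none at 0 in all libraries, summed to 342 to 530 FPKM in MYC-5 to MYC-8, 752 to 2074 FPKM in MYC-1 to MYC-4 and 96.4 to 883 FPKM in MYCN. The depth in reads is unknown. Between 8688 and 9844 genes reached 1 FPKM in each MYC library, and between 8858 and 9513 in each MYCN library.

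In some libraries most mitosis genes stood on the same side of their means, and libraries of 1 genotype differed from each other in them. In MYC-3, MYCN-2 and MYCN-3 the members lay on both sides, with medians of 0.05, -0.02 and 0.00 relative to the gene means (log2). Of the 40 genes, 35 reached 1 FPKM in at least 4 of the 12 libraries and were tested. MYC-1 was the highest of the 12 libraries for 27 of the 35, and MYCN-1 for 4 more. At the other end, MYC-5 was the lowest for 16 and MYC-7 for 13. The 40 genes summed to 53.1, 88.2, 82.5 and 185 FPKM in MYC-5, MYC-6, MYC-7 and MYC-8. The same sum was 418, 181, 152 and 108 FPKM in MYC-1 to MYC-4, and 262, 137, 155 and 178 FPKM in MYCN-1 to MYCN-4. Thus the MYC libraries took both the highest and the lowest sums, and the 4 MYCN sums lay inside their range. The sum over all genes also differed between libraries. As shares of it, MYC-1 (0.0429%) and MYC-5 (0.00521%) were still highest and lowest. In MYC-2, MYC-3 and MYC-4 the shares were 0.0171%, 0.0185% and 0.0190%, the reverse of the order of their sums. In MYCN-1 to MYCN-4 they were 0.0364%, 0.0159%, 0.0195% and 0.0292%.

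**Figure D1:**
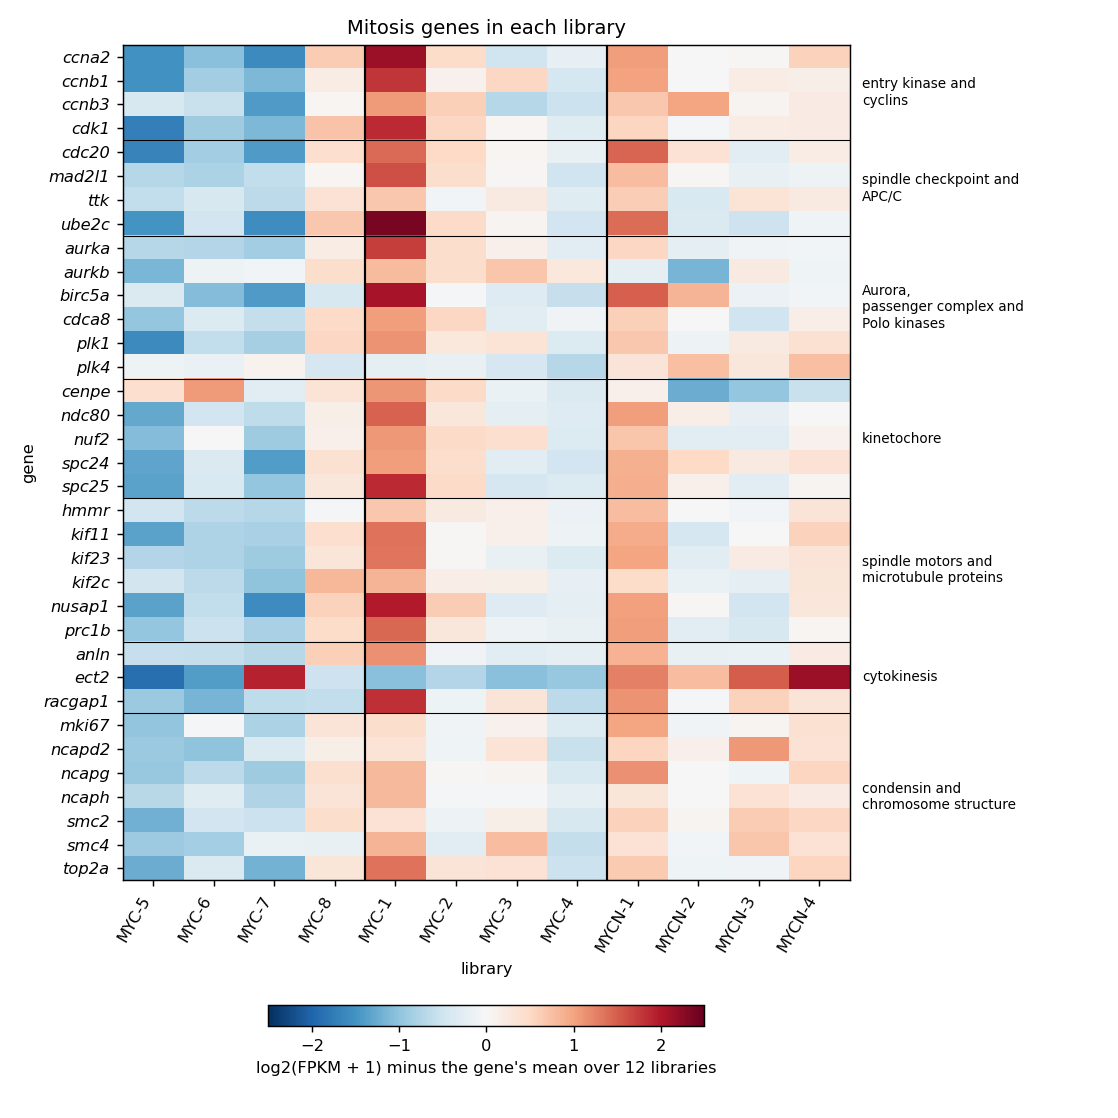
Level of the 35 tested mitosis genes (rows, grouped by role) in each of the 12 libraries (columns, MYC-5 to MYC-8, MYC-1 to MYC-4, then MYCN), as log2(FPKM + 1) minus the gene's own mean over the 12 libraries. Most rows are blue in MYC-5, MYC-6 and MYC-7 and darkest red in MYC-1, which was highest for 27 of the 35 genes. The other 8 genes were highest in a MYCN library. The rows of plk4, cenpe and ect2 have another order, although cenpe was also highest in MYC-1.

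Between the highest and lowest libraries the steps were shared by most genes, while MYCN-2 and MYCN-3 had nearly equal medians over the 35 genes (2.65 and 2.61 FPKM). The median ratio of MYC-1 over MYC-5 was 9.11 over the 35 genes, and 34 of the 35 were higher in MYC-1. MYC-8 over MYC-5 gave a median ratio of 4.72, with 32 of 35 higher in MYC-8, although both libraries belong to the same numbered set. The ratio of MYCN-1 over MYCN-2 was 2.1, with 33 of 35 higher in MYCN-1. On the log2(FPKM + 1) scale the median SD between the 8 MYC libraries was 0.781 for the mitosis genes and 0.457 for all 9606 genes tested. Between the 4 MYCN libraries it was 0.459 for the mitosis genes and 0.399 for all genes.

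The DNA replication genes followed this order less closely. Relative to each gene's own mean over the 12 libraries, on the log2(FPKM + 1) scale, the mitosis genes had a median of -0.98 in MYC-5, where 42 tested genes of DNA replication and S phase had -0.15. In MYC-1 the medians were 1.11 for mitosis and 0.24 for S phase, and in MYCN-1 they were 0.78 and 0.53. Over all 9606 genes the median ran from -0.29 to 0.22, and was 0.20 in MYC-1 and MYCN-1 and 0.22 in MYC-5. Markers of other cells were high in MYC-1 as well. It had the highest macrophage sum (2074 FPKM, against 752, 1447 and 1579 FPKM in MYC-2 to MYC-4). It also had the highest sum of 8 erythroid markers in the table (636 FPKM). The erythroid sum was 62.2, 123 and 191 FPKM in MYC-2 to MYC-4, 41.6 to 202 FPKM in MYC-5 to MYC-8 and 181 to 324 FPKM in MYCN. Neither sum was raised in MYCN-1 (194 and 181 FPKM). The 9 T and B lymphoid markers in the table, none at 0 in all libraries, summed to 39.9 FPKM in MYC-1 and 42.9 FPKM in MYCN-1. They summed to 4.76 to 9.98 FPKM in MYC-5 to MYC-8 and 11.3 to 19.1 FPKM in the other 6 libraries. Of these markers il7r alone stood at 28.1 FPKM in MYCN-1 and at 6.08 FPKM in MYC-1, so it made a larger part of the sum in MYCN-1. In both libraries il7r was the highest of its genotype. The next values were 10.3 FPKM in MYCN-3 and 2.91 FPKM in MYC-2. The 11 pan-leukocyte markers summed to 321 FPKM in MYC-1 and to 196, 217 and 278 FPKM in MYC-2 to MYC-4. They summed to 89.5 to 117 FPKM in MYC-5 to MYC-8 and 30.1 to 89.2 FPKM in MYCN. The mitosis sums were 418 FPKM in MYC-1 and 181, 152 and 108 FPKM in MYC-2 to MYC-4. As shares of all FPKM in the library these were 0.0429%, 0.0171%, 0.0185% and 0.0190%. The 8 neutrophil markers in the table summed to 112 FPKM in MYC-1, 50.1 FPKM in MYCN-1 and 139 to 231 FPKM in MYC-5 to MYC-8. The part of these cells in the mitosis levels of MYC-1 and MYCN-1 was not tested.

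**Figure D2:**
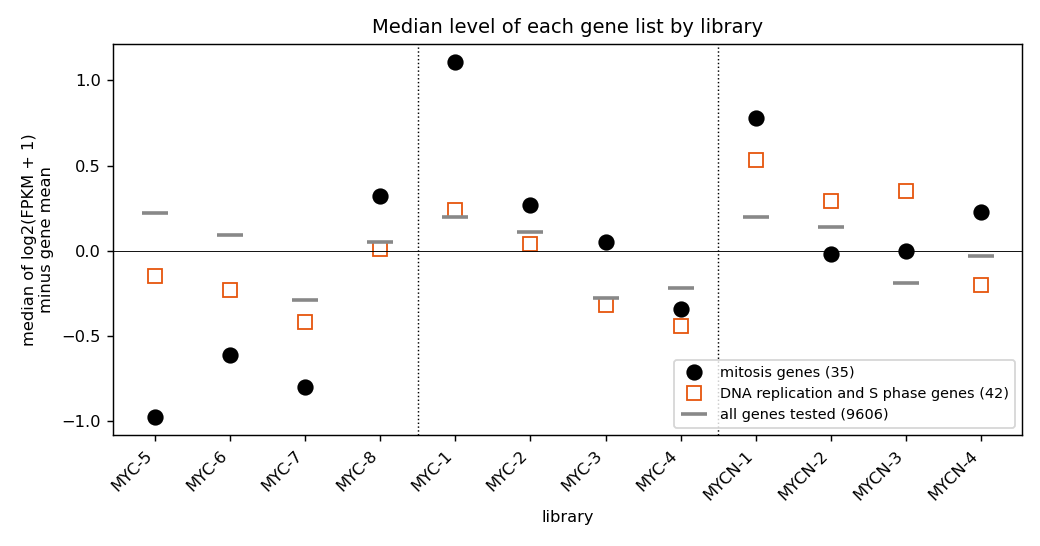
Median of log2(FPKM + 1) minus the gene's mean over 12 libraries, in each library, for the 35 mitosis genes (filled circles), 42 DNA replication and S phase genes (open squares) and all 9606 genes tested (grey bars). The mitosis genes run from -0.98 in MYC-5 to 1.11 in MYC-1, and the S phase genes from -0.44 in MYC-4 to 0.53 in MYCN-1.

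The MYC libraries were compared with the MYCN libraries, the contrast that the labels name. Of the 35 tested genes 2 fell in MYC, plk4 and ect2, and none rose (limma, Benjamini-Hochberg adjusted p under 0.05 over all 9606 genes). That is 5.71% of the genes, against 7.63% of all genes tested that fell and 5.77% that rose, so the share called was no higher than in the table as a whole. At an unadjusted p under 0.05, 5 of the 35 passed (14.3%), against 28.6% of all genes. Of these 4 were lower and 1 was higher in MYC, against 15.7% and 12.9% of all genes. The direction was nevertheless shared: 33 of the 35 log2 fold changes were below 0, against 53.9% of all genes, with a median of -0.38 for the mitosis genes and -0.05 for all genes. Most of the 35 moved together between libraries, so their directions are not independent of each other, here or in the contrasts below. Without MYC-1 the median of the mitosis genes was -0.61 and 4 of them fell, birc5a and racgap1 besides plk4 and ect2. Without MYCN-4 no mitosis gene was called, and without MYCN-2 only ect2 was. Over all genes, too, fewer were called without any one of MYC-1, MYCN-2 and MYCN-4 than with all libraries. Without MYC-5 the median of the mitosis genes was -0.23, and without MYCN-1 it was -0.24. Beside this contrast, 9 of 17 tested macrophage markers and 7 of 11 pan-leukocyte markers rose in MYC and none fell, and their part in the values of the mitosis genes was not tested.

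**Figure D3:**
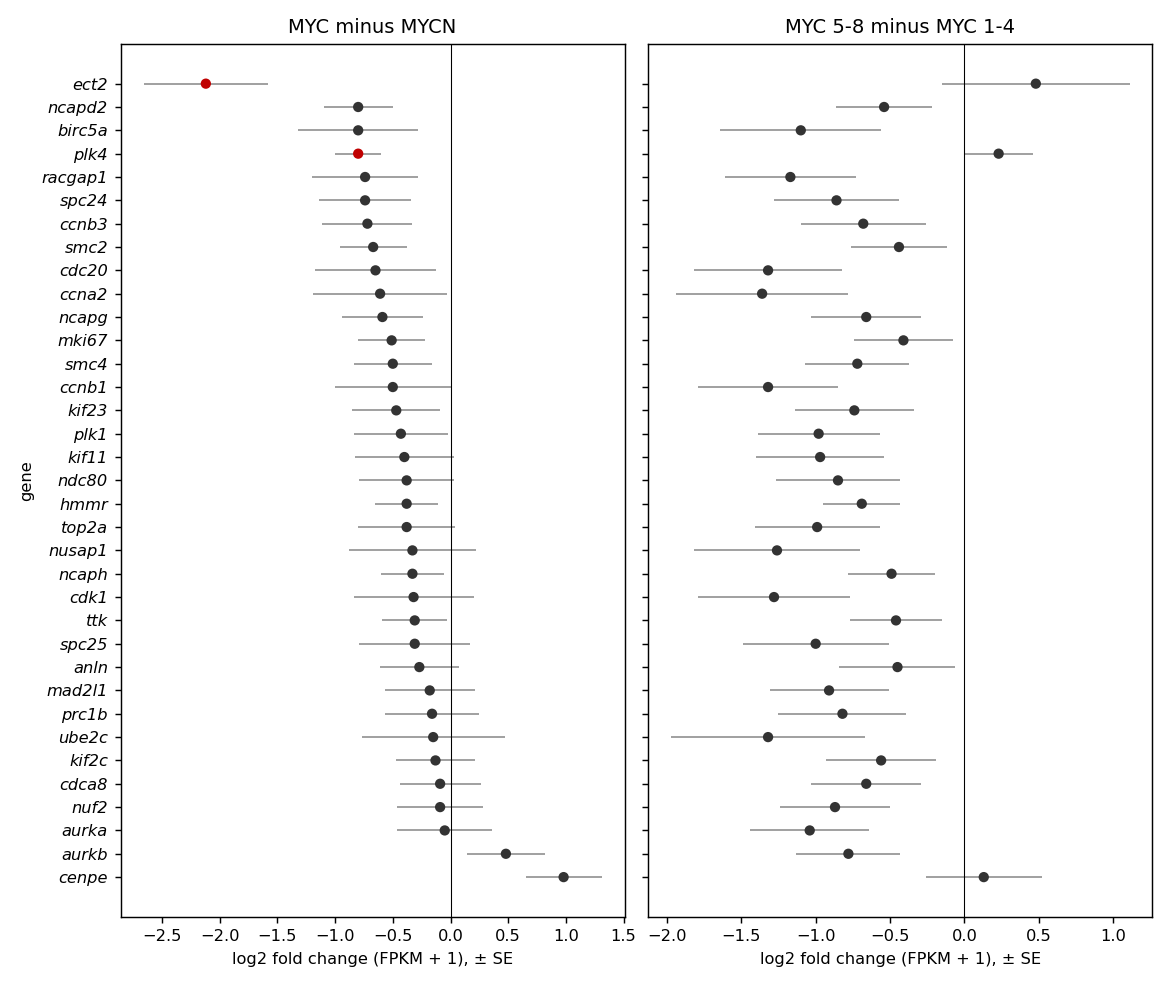
Log2 fold change on the FPKM + 1 scale with its SE for each of the 35 tested mitosis genes, for MYC minus MYCN (left, n = 8 and 4) and MYC-5 to MYC-8 minus MYC-1 to MYC-4 (right, n = 4 each); red marks an adjusted p under 0.05. On the left only plk4 (-0.80) and ect2 (-2.12) are red, and on the right 32 of 35 genes lie below 0 with none red.

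Entry into mitosis is run by cdk1 and its cyclins. The kinase gene cdk1 stood at 1.87, 4.04, 3.27 and 14.4 FPKM in MYC-5 to MYC-8, 33.1, 12.3, 8.63 and 6.56 FPKM in MYC-1 to MYC-4, and 12.5, 7.99, 9.63 and 9.71 FPKM in MYCN-1 to MYCN-4. The MYC values thus spanned the whole MYCN range on both sides (log2 fold change -0.32 ± 0.52, SE, adjusted p = 0.737). Its partner ccnb1, the cyclin B that CDK1 needs to start mitosis, stood at 0.629, 1.56, 1.15 and 4.33 FPKM in MYC-5 to MYC-8, 15.2, 4.02, 5.64 and 2.43 FPKM in MYC-1 to MYC-4, and 8.33, 3.67, 4.26 and 4.13 FPKM in MYCN. It had the same order, lowest in MYC-5 and highest in MYC-1 (MYC minus MYCN -0.50 ± 0.50, adjusted p = 0.561). The cyclin A gene ccna2 ranged over 1.08 to 26.7 FPKM in MYC and 5.29 to 11.9 FPKM in MYCN (-0.61 ± 0.58, adjusted p = 0.535). The cyclin gene ccnb3 was more even in MYCN, at 12.5, 15.9, 7.88 and 8.89 FPKM, and all 4 values of MYC-5 to MYC-8 (2.22 to 7.76 FPKM) lay below them. Over all 8 MYC libraries ccnb3 overlapped with MYCN, since MYC-1 reached 16.8 FPKM (-0.72 ± 0.39, adjusted p = 0.242).

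The spindle checkpoint and the anaphase-promoting complex were represented by 4 tested genes, none of them called. The most variable was ube2c, the ubiquitin-conjugating enzyme of the complex, at 2.44, 5.97, 2.28 and 14.5 FPKM in MYC-5 to MYC-8, 49.2, 12.5, 9.11 and 5.91 FPKM in MYC-1 to MYC-4, and 24.5, 6.56, 5.72 and 7.92 FPKM in MYCN. MYC-1 and MYCN-1 stood above all others of their genotype (MYC minus MYCN -0.15 ± 0.62, adjusted p = 0.903). The activator cdc20, which brings cyclin B to the complex, ranged over 0.370 to 10.6 FPKM in MYC and 2.56 to 10.9 FPKM in MYCN (-0.65 ± 0.52, adjusted p = 0.446). The checkpoint protein gene mad2l1, which holds CDC20 back until the chromosomes are attached, ranged over 5.26 to 31.9 FPKM in MYC and 8.54 to 17.4 FPKM in MYCN (-0.18 ± 0.39, adjusted p = 0.813). The checkpoint kinase gene ttk varied least of these 4, from 1.30 to 4.81 FPKM in MYC and 1.81 to 4.62 FPKM in MYCN.

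Among the Aurora and Polo kinases and the chromosomal passenger complex, plk4 fell in MYC. The kinase PLK4 controls the doubling of centrioles, which takes place in S phase. The gene stood at 2.58, 2.49, 3.17 and 1.91 FPKM in MYC-5 to MYC-8, 2.35, 2.45, 1.93 and 1.39 FPKM in MYC-1 to MYC-4, and 3.88, 5.57, 3.74 and 5.61 FPKM in MYCN. No MYC library reached the lowest MYCN library, which held for 5.6% of all tested genes and for no other mitosis gene. In the other direction no mitosis gene was free of overlap, against 3.73% of all genes. The log2 fold change was -0.80 ± 0.20 (SE, adjusted p = 0.0167), and the call ended without MYCN-2 (adjusted p = 0.0655) or MYCN-4 (0.0706). It was also the mitosis gene with the smallest spread within MYC (SD 0.243 of log2(FPKM + 1)), and it was not raised in MYC-1.

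The kinase gene aurkb, the enzyme of the passenger complex that corrects faulty attachments, had the highest mean of the 35 genes (22.9 FPKM over the 12 libraries). It stood at 8.94, 19.2, 19.9 and 29.0 FPKM in MYC-5 to MYC-8, 37.3, 28.8, 34.9 and 25.5 FPKM in MYC-1 to MYC-4, and 17.8, 8.85, 24.8 and 19.4 FPKM in MYCN. All of MYC-1 to MYC-4 lay above all MYCN libraries, while MYC-5 to MYC-8 overlapped with both. Over all MYC libraries the log2 fold change was 0.48 ± 0.34 (adjusted p = 0.394). When same-numbered libraries of MYC-1 to MYC-4 and MYCN were paired in a replicate block, it was 0.87 (adjusted p = 0.0337). Without the block, in the fit of 3 sets over all 12 libraries, MYC-1 to MYC-4 minus MYCN also gave 0.87, with an adjusted p of 0.139. That fit also takes its spread from MYC-5 to MYC-8, so the 2 p-values differ by more than the block. The related aurka, which matures the spindle poles, ranged over 0.845 to 10.2 FPKM in MYC and 1.84 to 3.85 FPKM in MYCN (-0.05 ± 0.41, adjusted p = 0.956).

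The other members of this group were not called. The kinase gene plk1, which acts at the poles, kinetochores and midzone, ranged over 1.75 to 17.0 FPKM in MYC and 6.65 to 12.2 FPKM in MYCN (-0.43 ± 0.41, adjusted p = 0.541). The survivin gene birc5a, which targets the passenger complex to centromeres, stood at 1.46, 0.469, 0.167 and 1.36 FPKM in MYC-5 to MYC-8, 12.1, 2.09, 1.52 and 1.09 FPKM in MYC-1 to MYC-4, and 7.83, 4.68, 1.83 and 2.00 FPKM in MYCN. All 4 of MYC-5 to MYC-8 lay below all MYCN libraries, and only MYC-1 lay above them. Its log2 fold change was -0.80 ± 0.52 (adjusted p = 0.343), and -1.14 without MYC-1 (adjusted p = 0.05, below the threshold before rounding). The borealin gene cdca8, another passenger, ranged over 1.68 to 9.88 FPKM in MYC and 2.72 to 6.93 FPKM in MYCN.

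At the kinetochore, cenpe went the other way from the list. It encodes a kinesin that carries chromosomes to the spindle equator. Its values were 3.72, 6.36, 1.94 and 3.43 FPKM in MYC-5 to MYC-8, 6.55, 3.89, 2.11 and 1.75 FPKM in MYC-1 to MYC-4, and 2.82, 0.497, 0.809 and 1.39 FPKM in MYCN. MYC-6 was its second highest library, although most mitosis genes were low there. The log2 fold change of 0.98 ± 0.33 did not pass (adjusted p = 0.0648). It passed with the replicate block (0.92, adjusted p = 0.0459), without MYCN-1 (1.24, adjusted p = 0.0395) or MYC-4 (1.08, adjusted p = 0.0493), with library weights (adjusted p = 0.0271) and after quantile (0.0163) or median-ratio scaling (0.0229). In the other 13 of 19 alternatives it did not pass, for example without MYCN-2 (0.79, adjusted p = 0.203) or MYCN-3 (0.88, adjusted p = 0.141). For MYC-1 to MYC-4 minus MYCN without the block, in the fit of 3 sets over all 12 libraries, the adjusted p was 0.161.

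The 4 subunits of the NDC80 complex, which ties microtubules to the kinetochore, kept the common order. The gene ndc80 itself stood at 0.190, 1.07, 0.859 and 2.2 FPKM in MYC-5 to MYC-8, 7.0, 2.48, 1.44 and 1.28 FPKM in MYC-1 to MYC-4, and 4.91, 2.23, 1.51 and 1.89 FPKM in MYCN. Its partners nuf2, spc24 and spc25 were likewise highest in MYC-1, with 6.88, 8.42 and 11.5 FPKM. None of the 4 was called, and their log2 fold changes ran from -0.74 for spc24 (± 0.40, adjusted p = 0.255) to -0.09 for nuf2 (± 0.37, adjusted p = 0.909).

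The 6 tested genes of spindle motors and microtubule proteins were all lower on average in MYC, with log2 fold changes between -0.47 and -0.13, and none was called. The gene kif11, the motor that pushes the spindle poles apart, stood at 0.325, 0.948, 0.905 and 3.46 FPKM in MYC-5 to MYC-8, 7.58, 2.40, 2.64 and 2.07 FPKM in MYC-1 to MYC-4, and 5.32, 1.48, 2.32 and 3.96 FPKM in MYCN. The gene nusap1, a microtubule-binding protein of the spindle, had the widest range of the group, 1.03 to 23.2 FPKM in MYC and 3.40 to 11.5 FPKM in MYCN. Genes for the midzone motor kif23 and the midzone bundler prc1b stayed below 6 FPKM, with 0.284 to 5.08 and 0.236 to 5.58 FPKM in MYC and 0.986 to 3.75 and 0.834 to 3.99 FPKM in MYCN. The microtubule depolymerase gene kif2c was nearly as high in MYC-8 as in MYC-1, at 6.25 and 6.30 FPKM, and ranged over 2.42 to 4.63 FPKM in MYCN. The gene hmmr, a spindle-binding protein, had the lowest mean of the 35 (0.936 FPKM).

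Of the 3 cytokinesis genes, ect2 fell in MYC. It encodes the exchange factor that activates RhoA at the cell equator, and racgap1 encodes the partner that recruits it to the spindle midzone. The gene ect2 stood at 0.25, 0.756, 16.6 and 2.21 FPKM in MYC-5 to MYC-8, 1.23, 1.78, 1.25 and 1.39 FPKM in MYC-1 to MYC-4, and 10.01, 6.88, 12.2 and 19.3 FPKM in MYCN. Every MYC library but MYC-7 lay below all MYCN libraries, and MYC-7 lay within their range. The log2 fold change was -2.12 ± 0.54 (SE, adjusted p = 0.0189). It was -2.5 without MYC-7 (adjusted p = 0.000194), and the call ended without MYCN-4 (-1.89, adjusted p = 0.0759). The call also ended without both MYCN-1 and MYC-1, an alternative chosen after seeing the data.

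The partner racgap1 had another pattern. Its values were 0.259, 0.0802, 0.552 and 0.582 FPKM in MYC-5 to MYC-8, 7.53, 1.21, 2.01 and 0.531 FPKM in MYC-1 to MYC-4, and 4.22, 1.32, 2.61 and 2.02 FPKM in MYCN. MYC-1 was highest, and the whole of MYC-5 to MYC-8 lay below all MYCN libraries. Over all MYC libraries it was not called (-0.74 ± 0.46, adjusted p = 0.318), but it was without MYC-1 (-1.03, adjusted p = 0.0375). The anillin gene anln, a scaffold of the contractile ring, ranged over 0.377 to 3.92 FPKM in MYC and 0.951 to 3.09 FPKM in MYCN.

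**Figure D4:**
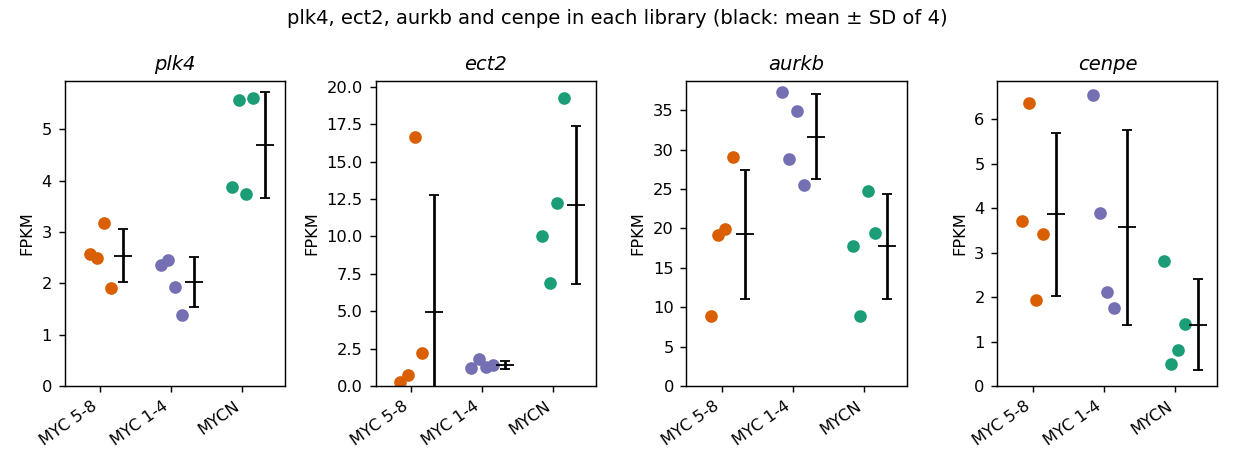
FPKM of plk4, ect2, aurkb and cenpe in each library of MYC-5 to MYC-8, MYC-1 to MYC-4 and MYCN (points, 4 per set, in order of library number), with mean ± SD in black, with bars ending at 0 for ect2. All MYC points of plk4 lie below the MYCN points, MYC-7 of ect2 (16.6 FPKM) lies within the MYCN range, and all MYC-1 to MYC-4 points of aurkb lie above MYCN.

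The condensin subunits, topoisomerase and the proliferation antigen mki67 formed the last group, with all 7 log2 fold changes below 0 (-0.80 to -0.33) and none called. The gene ncapd2, a condensin I subunit, stood at 1.31, 1.17, 2.41 and 3.87 FPKM in MYC-5 to MYC-8, 4.56, 3.06, 4.52 and 1.99 FPKM in MYC-1 to MYC-4, and 5.39, 3.79, 8.29 and 4.62 FPKM in MYCN. Most MYC values lay below the MYCN range, with an overlap through MYC-8, MYC-1 and MYC-3 (-0.80 ± 0.30, adjusted p = 0.0948). The core ATPase gene smc2 ranged over 0.160 to 2.63 FPKM in MYC and 1.79 to 3.18 FPKM in MYCN (-0.67 ± 0.29, adjusted p = 0.139). The gene mki67, whose protein coats mitotic chromosomes, ranged over 0.322 to 2.54 FPKM in MYC and 1.45 to 4.13 FPKM in MYCN (-0.51 ± 0.29, adjusted p = 0.279). Unlike cdk1 or ube2c, both smc2 and mki67 were highest in a MYCN library. The gene top2a, which untangles sister DNA, was highest in MYC-1 at 8.15 FPKM, against 2.33 to 4.62 FPKM in MYCN (-0.38 ± 0.42, adjusted p = 0.610).

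Within MYC, libraries MYC-5 to MYC-8 had lower average levels than MYC-1 to MYC-4 for 32 of the 35 genes, a direction that 38.5% of all genes shared. The exceptions were plk4 (0.23 ± 0.23), cenpe (0.13 ± 0.39) and ect2 (0.48 ± 0.63). The median log2 fold change was -0.82 for the mitosis genes and 0.09 for all genes tested. In limma none of the 35 was called, against 0.552% of all genes (0.396% lower and 0.156% higher). At an unadjusted p under 0.05, 14 of the 35 passed (40%), against 9.14% of all genes. All 14 were lower, against 5.61% of all genes that were lower and 3.53% that were higher. No mitosis gene separated the 2 sets without overlap, against 3.46% of all genes that did so lower and 2.31% higher. MYC-8 lay above the lowest of MYC-1 to MYC-4 for each of the 35 genes. The largest differences belonged to ccna2 (-1.36 ± 0.58, adjusted p = 0.484), cdc20 (-1.32 ± 0.50, 0.382), ccnb1 (-1.32 ± 0.47, 0.338) and ube2c (-1.32 ± 0.65, 0.596). These counts moved when single libraries were left out. At an unadjusted p under 0.05 the count was 1 without MYC-1, 3 without MYC-7, 4 without MYC-5, 6 without MYC-6 and 8 without MYC-2. It was 16 without MYC-3, 20 without MYC-4 and 27 without MYC-8, and 9 with the 8 MYC libraries alone. How many of all genes passed at an unadjusted p was not counted for these alternatives. The median of the mitosis genes was -0.50 without MYC-1 and -1.07 without MYC-8. Without both, an alternative chosen after seeing the data, it was -0.74, and 15 genes passed at an unadjusted p under 0.05. All 17 tested macrophage markers and all 11 pan-leukocyte markers also had lower averages in MYC-5 to MYC-8 (medians -1.19 and -0.95, none called). So had 4 of 5 tested T and B lymphoid markers (median -0.97, none called). The other way went 6 of 7 tested neutrophil markers (median 0.42) and 4 of 5 erythroid markers (median 0.34), none called. The part of these cells in the mitosis values was not tested.

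Set against MYCN, the MYC sets gave different values for the list, and since both share the MYCN libraries they are given side by side only. For MYC-5 to MYC-8 minus MYCN the median was -0.84, with 33 of 35 below 0, against 50.6% of all genes. No mitosis gene was called in limma, against 10.1% of all genes (5.63% lower and 4.51% higher). At an unadjusted p under 0.05, 17 of the 35 passed, against 24.6% of all genes. Of these 16 were lower and 1, cenpe, was higher, against 12.8% and 11.9% of all genes. The count at an unadjusted p was 8 without MYCN-1, MYC-5 or MYC-7, 11 without MYC-6, 23 without MYC-1 and 26 without MYC-8. By adjusted p, leaving out MYC-8 gave 4 calls (cdc20, ncapd2, smc2 and spc24, all lower), leaving out MYC-1 gave 2 and leaving out MYC-7 gave 1, and other settings gave 0 to 3. For MYC-1 to MYC-4 minus MYCN the median was 0.04, with 16 of 35 below 0, against 56.6% of all genes. Here plk4 and ect2 fell and none rose, against 6.02% of all genes that fell and 5.28% that rose (11.3% in all). With the replicate block aurkb and cenpe rose besides, which makes 4 calls. More of all genes, too, were called with the block than without it. No mitosis gene was called without MYC-4 or MYCN-4, and 1 was without any one of MYC-1, MYC-2, MYC-3, MYCN-1, MYCN-2 and MYCN-3. Over all genes, too, fewer were called without any one of these libraries than with all of them. At an unadjusted p under 0.05, 4 of the 35 passed, against 24.8% of all genes, with 2 lower (14.2% of all genes) and 2 higher (10.6%). In MYC-5 to MYC-8, 5 genes lay below all MYCN libraries without overlap (ccnb3, birc5a, plk4, racgap1 and smc4), which is 14.3%, against 9.19% of all genes, and none lay above them, against 7.65%. In MYC-1 to MYC-4, plk4 and ect2 lay below all MYCN libraries, against 10.4% of all genes, and aurkb above them, against 6.87%. For plk4 the log2 fold changes were -0.68 in MYC-5 to MYC-8 and -0.91 in MYC-1 to MYC-4, and for ect2 -1.89 and -2.36. The test of the difference is the contrast between the MYC sets above, where neither was called (adjusted p = 0.923 and 0.949).

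Other genes of mitosis were taken from 7 lists of the anaphase-promoting complex, checkpoint, kinetochore, condensin and cohesin, spindle and centrosome, cytokinesis and E2F or MuvB factors. Of 115 in the table, 99 were tested, and 7 fell in MYC, 1 rose and 91 did not pass, with a median of -0.29. These are 7.07% and 1.01%, against 7.63% of all genes that fell and 5.77% that rose. The genes that fell included rhoab, a RhoA gene (17.8 ± 4.94 FPKM in MYC and 60.3 ± 14.9 FPKM in MYCN, SD, log2 fold change -1.72, adjusted p = 0.000414). With it fell rcc2, a regulator of chromosome condensation (65.8 FPKM in MYC and 140 FPKM in MYCN, -1.07, adjusted p = 0.00174), and cdc27, a core subunit of the anaphase-promoting complex (5.73 FPKM in MYC and 10.2 FPKM in MYCN, -0.74, adjusted p = 0.0164). The 1 that rose was ska1, which helps kinetochores follow shortening microtubules (15.6 ± 7.86 FPKM in MYC and 2.43 ± 0.65 FPKM in MYCN, 2.08, adjusted p = 0.00706). In MYC-5 to MYC-8 minus MYC-1 to MYC-4 the median of these 99 genes was -0.12, against -0.82 for the 35 members, and none was called in limma, with 10 at an unadjusted p under 0.05 (10.1%, against 9.14% of all genes). Of the 42 S phase genes 7 fell in MYC (16.7%, against 7.63% of all genes) and none rose (against 5.77%), with a median of -0.37, and between the MYC sets their median was -0.05.

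Of the 5 members below the filter, prc1a and ccnf were listed at 0 in all 12 libraries, and birc5b reached 0.443 FPKM in MYC-5 and 0.0986 FPKM in MYC-1 and was listed at 0 elsewhere. The cyclin gene ccnb2 followed the common order at low levels, with 3.75 FPKM in MYC-1, 0.168 to 0.868 FPKM in MYC-5 to MYC-8 and 0.452 to 1.61 FPKM in MYCN. The gene foxm1, the transcription factor of G2 and M genes, stood at 0.0823, 0.00945, 0.0358 and 0.198 FPKM in MYC-5 to MYC-8, 4.15, 0.560, 0.262 and 0.142 FPKM in MYC-1 to MYC-4, and 2.87, 0.158, 0.132 and 0.144 FPKM in MYCN. It exceeded 1 FPKM in MYC-1 and MYCN-1 only, the libraries in which most of its class were highest within their genotype. Under other IDs, the phosphatase gene cdc25b (row cdc25), which activates CDK1, and the midzone motor gene kif20a were tested, and neither was called (-0.05 and -0.22, adjusted p = 0.965 and 0.695). The chromokinesin gene kif4 (row zgc:66125) was below the filter, at 0.0285 to 1.29 FPKM in MYC and 0.575 to 0.852 FPKM in MYCN.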

How the data were processed

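RNA of EGFP-positive tumour cells had been sequenced after ribosomal RNA depletion as paired 100 bp reads, per the labels. The authors deposited 1 FPKM value per gene and library, made with cutadapt, TopHat2 2.0.11 and Cufflinks 2.2.1, per the submitters' processing notes. The genome build and annotation are not given in the sources used here, and FPKM carries no read count: the ratios of low values (under 0.5 FPKM) showed no shared step, with at most 11.0% of genes in a bin of 0.1 (log2). The number of libraries therefore limits the precision, and values of paralogs with near-identical sequence are uncertain. The 9606 genes that reached 1 FPKM in 4 or more libraries were fitted as log2(FPKM + 1) with limma 3.58.1 in R 4.3.3 (trend), two-sided, with Benjamini-Hochberg adjustment over all of them and a threshold of 0.05, after a test on simulated data. Fold changes of low genes are understated on this scale. "Rose" and "fell" mark adjusted p under 0.05. Both MYC libraries and MYCN libraries entered the first fit by genotype, and the contrasts of MYC sets came from a fit of 3 sets over all 12 libraries. Older gene names came from the RefSeq name table. Every member could be named, and from other lists up to 3 called genes with the smallest p. The members, lists and tests were chosen with earlier results of these data known. The replicate numbers, taken from the titles, paired the samples by a preset rule: deviations of same-numbered MYC and MYCN libraries correlated across 9606 genes at 0.363, 0.471, 0.564 and 0.163, all over 0.1. MYCN-1, MYCN-2 and MYCN-3 each correlated best with their own number among MYC-1 to MYC-4, but MYCN-4 did not. The check uses the same expression values as the fits, so it cannot show that same-numbered libraries belong together. Alternatives covered the pseudocount, filter, scaling, weights, replicate block and leaving out each library.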

Additional observations from a re-analysis of the deposited data

Results flagged for a closer look

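In each genotype the library farthest from the others was checked for every mitosis gene with a value above 0. A library is named where its gap to the next, in FPKM, was large for the range of its group. For normally distributed values chance would give this in about 1 of 20 groups. FPKM is skewed upwards, so that rate need not hold here. On the log2 scale a gap at the top is smaller for its range. Of the 26 values flagged, 20 were MYC-1 standing above the other 7 MYC libraries. They were cdk1 (33.1 FPKM), ccna2 (26.7), ccnb1 (15.2), ccnb2 (3.75), cdc20 (10.6), mad2l1 (31.9), ube2c (49.2), aurka (10.2), birc5a (12.1), kif11 (7.58), kif23 (5.08), nusap1 (23.2), prc1b (5.58), ndc80 (7.0), spc25 (11.5), top2a (8.15), racgap1 (7.53) and foxm1 (4.15). Under other IDs the same held for cdc25b (row cdc25, 18.8 FPKM) and kif4 (row zgc:66125, 1.29 FPKM). Within MYCN, MYCN-1 stood apart for ccnb1 (8.33 FPKM), mad2l1 (17.4), ube2c (24.5) and foxm1 (2.87). Besides these, MYC-7 stood apart for ect2 (16.6 FPKM) and MYC-5 for birc5b (0.443 FPKM). These genes share libraries, so the values are not independent of each other.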

How the results depend on the processing

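The count of 2 genes called in MYC minus MYCN was 1 with a filter of 5 FPKM, under which plk4 was not tested, and ranged over 0 to 4 when each library was left out (0 without MYCN-4, 1 without MYCN-2, 4 without MYC-1). Without both MYCN-1 and MYC-1, an alternative chosen after seeing the data, it was 2, with cenpe and plk4 called and ect2 not. With the replicate block, which pairs MYC-1 to MYC-4 with the same-numbered MYCN libraries and leaves out MYC-5 to MYC-8, it was 4 (aurkb and cenpe besides plk4 and ect2), and the median log2 fold change was 0.04. Under that block the log2 fold changes of 17 genes changed sign and were above 0, those of cdk1 (0.32), ccna2 (0.06), ccnb1 (0.16), cdc20 (0.01), mad2l1 (0.28), aurka (0.47), cdca8 (0.24), plk1 (0.06), kif11 (0.08), kif2c (0.15), nusap1 (0.30), ndc80 (0.04), nuf2 (0.35), spc25 (0.19), top2a (0.12), prc1b (0.25) and ube2c (0.51). That fit holds fewer samples by construction, yet more of all genes were called in it than in the fit reported. Quantile scaling gave 0.02 for aurka and for cdca8, and library weights 0.01 for aurka. Leaving out each library gave -0.42 to 0.04 for mad2l1, -0.30 to 0.12 for aurka, -0.28 to 0.09 for cdca8, -0.26 to 0.00 for kif2c, -0.24 to 0.12 for nuf2, -0.37 to 0.15 for prc1b and -0.50 to 0.28 for ube2c. Rescaling to a common sum moved the median of all genes to -0.22, against -0.51 for the mitosis genes.

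Between the MYC sets no gene was called under any alternative run, and the median ranged over -1.22 to -0.50. The exceptions cenpe and ect2 ranged over -0.09 to 0.41 and -0.32 to 0.95 when each library was left out. For MYC-5 to MYC-8 minus MYCN, no gene was called by the fit reported, but 1 was with a pseudocount of 0.1 or with the 8 libraries alone, 2 after quantile or median-ratio scaling, and 3 after rescaling to a common sum or with library weights. Without each library the count ranged over 0 to 4. For MYC-1 to MYC-4 minus MYCN it was 1 with no filter or with a filter of 5 FPKM, 4 with the replicate block, and 0 to 2 without each library (0 without MYC-4 or MYCN-4). For these changes the cause was not tested. The unknown read depth and the 4 libraries in each set limit the precision.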
